A study of Mus musculus with 8 samples.

Results

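Intestinal stem cell markers are genes whose transcripts mark the dividing cells at the base of the crypts, the pits from which the lining of the small intestine is renewed. The set considered here was Lgr5, Ascl2, Olfm4, Smoc2, Sox9, Ephb2, Cd44, Prom1, Bmi1 and Msi1, and the array probes were found by matching their transcript accessions to these symbols. Through the RefSeq annotation used, 9 of the 10 genes were matched to a probe, and all 9 were among the 21303 genes tested. Olfm4 was not matched and was not analysed here, which says nothing about whether the array carries a probe for it. The 9 genes had 15 of the 39429 probes, with 1 probe for 5 genes and several probes for the other 4.

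The mice were of the strain C57BL/6J Min/+. Total RNA of their small intestine was measured on 8 single-colour (Cy3) arrays, with RNA of 1 to 3 mice on each. All mice carried the Min allele of Apc, a truncating mutation that predisposes to intestinal adenomas. The label Min/+ stands for a heterozygous genotype, so no group was wild type for Apc. There were 4 groups of 2 arrays, namely males and females on the control diet and males and females on the Western diet. The control diet was unmodified semisynthetic AIN-93G. In the Western diet, which was high in fat and low in fiber, vitamin D, calcium and folate, milk fat supplied 66.4% of the fat and rapeseed and sunflower oil supplied 33.6%. Feeding is labelled as lasting 18 months, and the age of the mice is not given in the labels used here. The design text names diet and sex as the comparisons. Arrays are called by group and replicate number, such as Control male 1. Nothing in the labels ties the 2 arrays of a group to separate mice, so p-values measure the spread between arrays, which may be partly technical. The labels do not state whether adenoma tissue was part of the samples.

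Crypt base cells are kept dividing by Wnt ligands and R-spondins from neighbouring Paneth cells and stroma. Wnt signalling stabilises beta-catenin, which with TCF/LEF factors switches on target genes, and Apc normally limits this by promoting the breakdown of beta-catenin. Several of the markers, among them Lgr5, Ascl2, Sox9, Ephb2 and Cd44, are known Wnt targets in the intestine, whereas Bmi1 is associated with slowly cycling or reserve cells. The RNA came from whole tissue, in which fewer cells of a type and less RNA per cell cannot be told apart.

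Values are log2 of the background-subtracted probe signal minus the 75th percentile of the same array, so 0 is that percentile and a step of 1 is a doubling. A probe's level is not comparable with that of another probe. The 75th percentile itself lay between 486 and 902 signal units. Each of the 9 genes was well above background on all 8 arrays with the probe used. Markers of the labelled tissue were present, as all 11 enterocyte genes and all 6 measured Paneth cell genes were well above background on all 8 arrays.

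Both Control female libraries stood apart. On the library labelled Control female 1 the Y-linked gene Eif2s3y measured 1.90, which lay within the 1.75 to 2.45 of the male arrays, whereas on the remaining female arrays it lay between -7.28 and -5.58. The name of the deposited data for that library also carries a prefix otherwise used for the Western diet. Control female 2 had 75.6% of its probes well above background, against 55.1% to 61.9% on the other arrays. The mean correlation of an array with the others, over the probe used for each gene, was 0.951 for Control female 2. It was 0.972 to 0.980 for the other arrays, with Control male 1 the next lowest. Marker differences and medians given below are repeated without either library where that moved them by over 1.5 times.

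Promoter sequence from RefSeq (GRCm38.p6) was at hand for 6 of the 10 genes, as 7 windows of 250 bases before a transcription start. Ascl2 is shown because it is the one gene with a window among the 3 that moved together across arrays (Lgr5, Ascl2 and Smoc2), and Bmi1 and Prom1 because they were the members whose arrays separated by diet and by sex. Of the 2 Prom1 windows, the one with a CCAAT match is shown, and the other held 0. Capitals mark CCAAT, or ATTGG where the match is on the opposite strand. Each line runs 5′ to 3′ on the strand of the gene. The windows are chr7:142969265-142969514 (minus strand) for Ascl2, chr2:18676768-18677017 (plus strand) for Bmi1 and chr5:44101737-44101986 (minus strand) for Prom1.
Ascl2: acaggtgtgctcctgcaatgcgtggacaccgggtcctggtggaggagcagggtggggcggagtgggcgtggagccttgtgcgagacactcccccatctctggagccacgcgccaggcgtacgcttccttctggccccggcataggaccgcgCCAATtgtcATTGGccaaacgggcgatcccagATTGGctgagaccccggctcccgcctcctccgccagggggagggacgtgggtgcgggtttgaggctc
Bmi1: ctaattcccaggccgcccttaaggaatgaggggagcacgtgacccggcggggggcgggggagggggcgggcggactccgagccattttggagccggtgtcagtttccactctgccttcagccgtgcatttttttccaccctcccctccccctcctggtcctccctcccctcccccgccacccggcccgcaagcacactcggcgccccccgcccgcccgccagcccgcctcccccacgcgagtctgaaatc
Prom1: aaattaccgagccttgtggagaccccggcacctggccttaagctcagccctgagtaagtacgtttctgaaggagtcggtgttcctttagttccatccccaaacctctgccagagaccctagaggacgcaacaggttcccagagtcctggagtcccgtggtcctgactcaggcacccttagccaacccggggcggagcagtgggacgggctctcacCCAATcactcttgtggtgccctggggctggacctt

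The Ascl2 window held 3 CCAAT matches, the Prom1 window shown 1 and the Bmi1 window 0. Over the member windows, 4 of 7 held CCAAT on either strand, against 33.8% of the 32851 windows of all genes. The TCF/LEF core was searched as CTTTGAT and CTTTGAA on both strands, which do not overlap CCAAT, and 0 of 7 member windows held it, against 7.48% of all windows. These letters are a description of the windows shown, and bases outside them were not searched.

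Lgr5 is the R-spondin receptor that defines the crypt base columnar stem cell. It measured -0.72 and -1.44 on the Control male arrays, -2.02 and -2.04 on Control female, -1.89 and -1.64 on Western male and -2.69 and -0.64 on Western female. The lowest and the highest of the 8 values were therefore the 2 arrays of the same group, Western female. Group means ran from Control male (-1.08 ± 0.51, SD, n = 2) through Western female (-1.67 ± 1.45) and Western male (-1.76 ± 0.18) to Control female (-2.03 ± 0.012), and the Western female arrays spanned the values of all the other groups. The diet difference averaged over the sexes was -0.16 ± 0.46 (SE, 95% interval -1.29 to 0.97, limma adjusted p = 0.999). In males the 2 Western arrays lay below the 2 control arrays, by 0.68 on the mean, a difference of -0.68 ± 0.65 (SE, limma adjusted p = 1.000). That difference was -0.32 without Control male 1 and -1.04 without Control male 2.

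Ascl2, a transcription factor required for the stem cell state, and Smoc2, a secreted matrix protein enriched in the same cells, followed a similar course. Ascl2 measured 0.72 and 0.70 on Control male, 0.45 and 0.40 on Control female, 0.16 and 0.50 on Western male and 0.22 and 1.05 on Western female. Smoc2 measured 2.51 and 2.21 on Control male, 1.78 and 1.55 on Control female, 1.74 and 1.74 on Western male and 1.20 and 2.58 on Western female. As for Lgr5, Western female 2 was the highest array for both genes, and both Western male arrays lay below both Control male arrays. Western female 1 was the lowest array for Smoc2 and Western male 1 for Ascl2. Diet differences over both sexes were -0.09 ± 0.22 (SE, 95% interval -0.63 to 0.46) for Ascl2 and -0.20 ± 0.32 (95% interval -0.98 to 0.58) for Smoc2, with limma adjusted p = 0.999 for each. Without Western female 1 they were 0.12 and 0.15, and without Western female 2 they were -0.30 and -0.55.

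Sox9, a transcription factor of the crypt base that is also made by Paneth and tuft cells, was measured with a probe printed as 10 spots, which were averaged. It measured -1.08 and -1.27 on Control male, -1.33 and -1.56 on Control female, -0.98 and -0.93 on Western male and -1.64 and -0.67 on Western female. Here too Western female 1 was the lowest array and Western female 2 the highest, but in males the Western arrays lay above the control arrays. The diet difference was 0.25 ± 0.24 (SE, 95% interval -0.34 to 0.84, limma adjusted p = 0.995). It was 0.49 without Western female 1 and 0.009 without Western female 2.

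**Figure D1:**
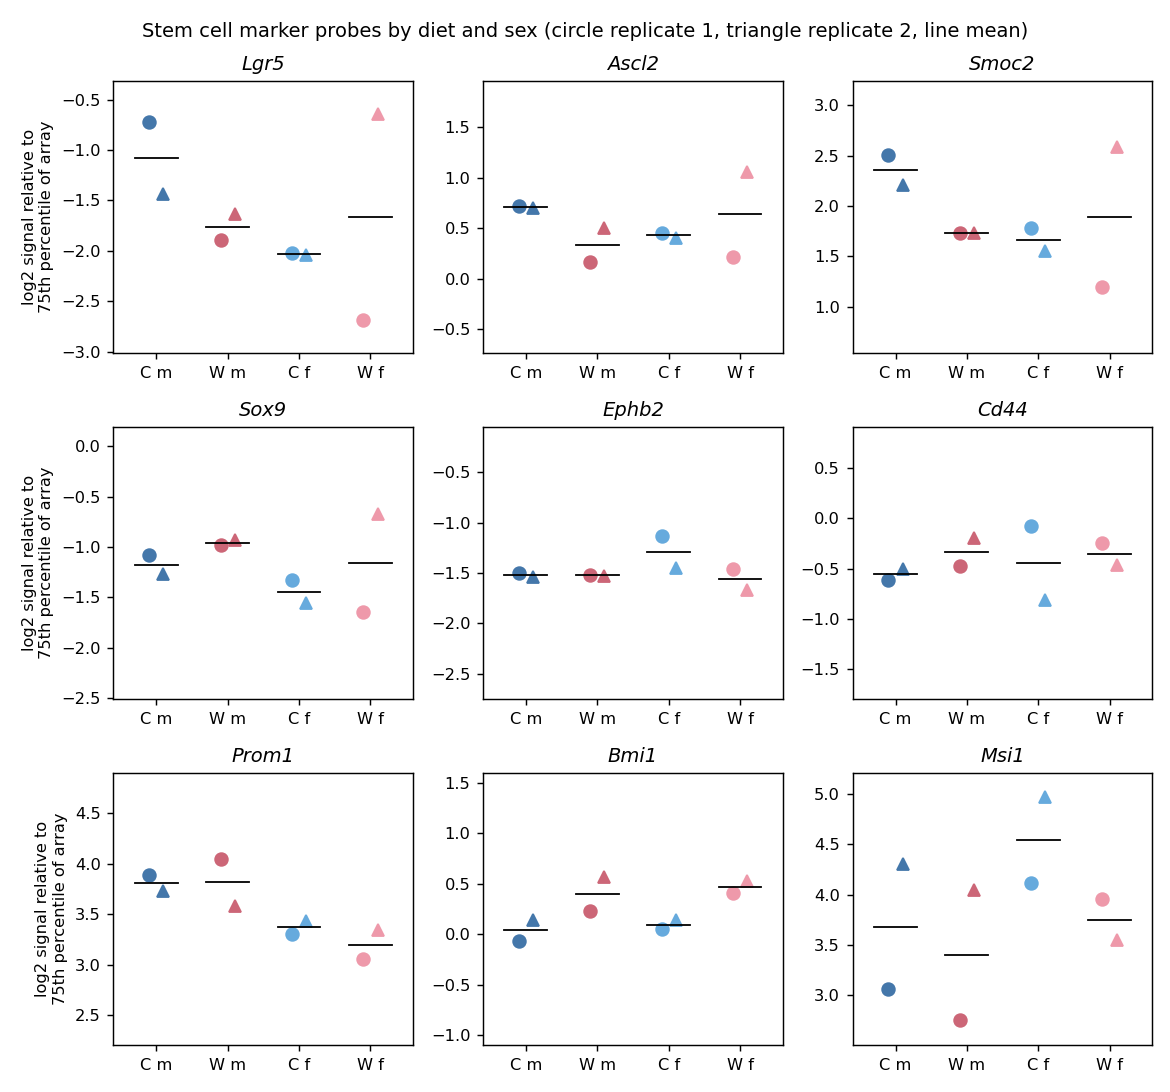
Signal of each measured stem cell marker (log2, relative to the 75th percentile of the array) in 4 groups of 2 arrays, where C and W are the control and Western diets and m and f are males and females; points are arrays and lines are group means, and every panel spans the same range. The Western female arrays stand far apart for Lgr5, at -2.69 and -0.64, whereas those of Bmi1 lie together at 0.41 and 0.53.

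Ephb2, a receptor tyrosine kinase that helps to position cells along the crypt, varied least. Its values lay between -1.67 (Western female 2) and -1.14 (the library labelled Control female 1), and its SD over the 8 arrays, 0.15, was larger than that of 9.71% of genes tested. On the male arrays it measured -1.50, -1.54, -1.52 and -1.53. Its diet difference was -0.13 ± 0.15 (SE, 95% interval -0.50 to 0.23, limma adjusted p = 0.995), and it was -0.06 without the library labelled Control female 1 and -0.21 without Control female 2.

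Cd44, an adhesion receptor of crypt cells, measured -0.61 and -0.50 on Control male, -0.07 and -0.81 on Control female, -0.47 and -0.19 on Western male and -0.24 and -0.46 on Western female. The diets overlapped through the library labelled Control female 1, which was the highest of the 8. The diet difference was 0.16 ± 0.21 (SE, 95% interval -0.36 to 0.67, limma adjusted p = 0.998). Without the library labelled Control female 1 it was 0.34 and the Western arrays lay above the remaining control arrays, and without Control female 2 it was -0.03.

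Msi1, an RNA-binding protein of stem and progenitor cells, had the widest range of the 9 genes. It measured 3.06 and 4.30 on Control male, 4.11 and 4.96 on Control female, 2.75 and 4.05 on Western male and 3.95 and 3.55 on Western female. Its range was 2.21, with the lowest value on Western male 1 and the highest on Control female 2, and in males the array on slide 1 lay over 1 unit below the other array on either diet. The diet difference was -0.53 ± 0.43 (SE, 95% interval -1.59 to 0.52, limma adjusted p = 0.995), and the sex difference was 0.60 ± 0.43 (SE, 95% interval -0.46 to 1.66, limma adjusted p = 0.906). Without Control female 2 these were -0.32 and 0.39, and without the library labelled Control female 1 they were -0.75 and 0.82. With each array left out in turn, the diet difference ran from -0.86 (without Western male 2) to -0.21 (without Western male 1), and the sex difference from 0.28 (without Western male 1) to 0.93 (without Western male 2).

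Bmi1, a subunit of Polycomb repressive complex 1, was the one member whose 4 Western arrays all lay above its 4 control arrays. It measured -0.06 and 0.15 on Control male, 0.05 and 0.14 on Control female, 0.23 and 0.57 on Western male and 0.41 and 0.53 on Western female. Among all genes, 0.864% were separated this way with the Western arrays higher and 2.29% with the Western arrays lower. The difference was 0.36 ± 0.15 (SE, 95% interval -0.01 to 0.74), a factor of 1.29, with limma adjusted p = 0.995. It was 0.36 in males, 0.37 in females and 0.32 within the slide that held replicate 1 of every group. Without the library labelled Control female 1 it was 0.34 (limma adjusted p = 0.528), and without Control female 2 it was 0.39.

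The separation of Bmi1 depended on the probe. Its other probe measured -0.98 and -0.99 on Control male, -0.57 and -1.02 on Control female, -0.79 and -0.36 on Western male and -0.71 and -0.59 on Western female. With that probe the value of the library labelled Control female 1 lay among the Western values, and the diets overlapped. The mean of both probes gave a diet difference of 0.32 and no separation. The separation was also lost when arrays were scaled to their median.

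Prom1, a membrane protein of stem and progenitor cells, was the one member separated by sex. It measured 3.89 and 3.73 on Control male, 3.31 and 3.44 on Control female, 4.05 and 3.58 on Western male and 3.06 and 3.34 on Western female. All 4 female arrays lay below all 4 male arrays, the library labelled Control female 1 included, and 1.03% of genes were separated in that direction and 1.96% in the other. The female minus male difference was -0.53 ± 0.17 (SE, 95% interval -0.95 to -0.10), 1.44-fold lower, with limma adjusted p = 0.906 and an unadjusted p of 0.0225 in the limma fit. It was -0.50 without the library labelled Control female 1 (limma adjusted p = 0.421), -0.56 without Control female 2 and -0.79 within the slide that held replicate 1 of every group. The other Prom1 probe, which targets a different transcript record, measured -0.36, -0.70, -0.25 and -1.39 on the male arrays and -1.52, -1.23, -1.80 and -0.78 on the female arrays, so that the sexes overlapped there.

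**Figure D2:**
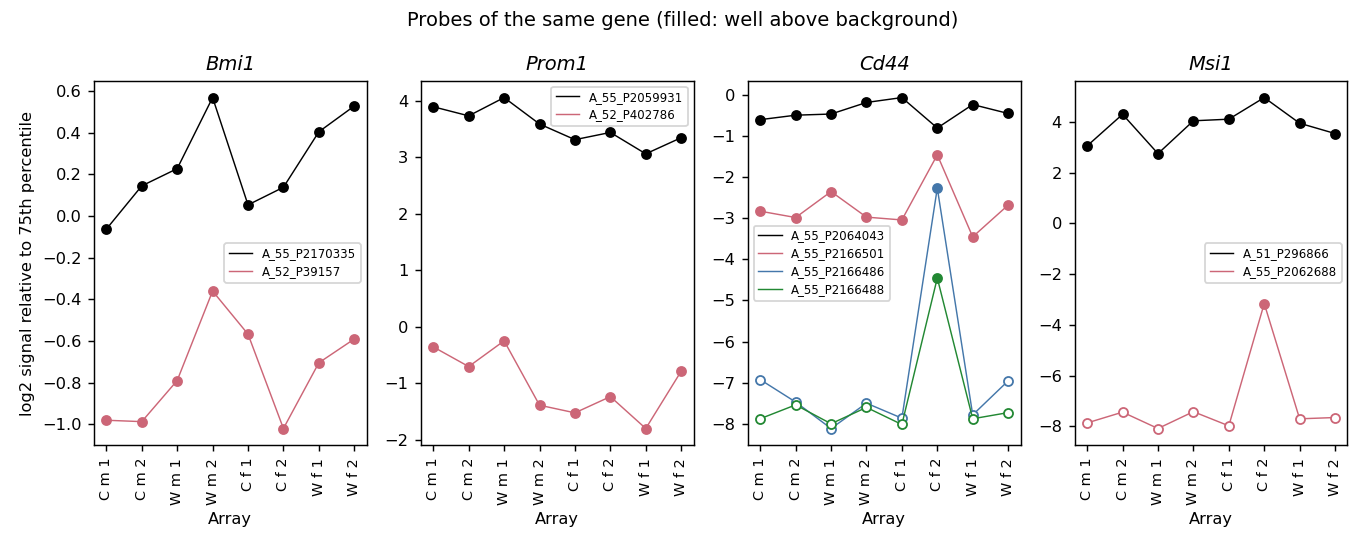
Signal (log2, relative to the 75th percentile) of every probe of the 4 genes with several probes, for each array (C control, W Western, m male, f female); filled points were well above background, open points were not, and lines join the arrays of a probe. The Bmi1 probes part at the library labelled Control female 1 (0.05 and -0.57), and 3 probes of Cd44 and Msi1 were well above background on Control female 2 alone.

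Probes of Cd44 and Msi1 differed most on Control female 2. A second Cd44 probe measured -1.46 there and between -3.46 and -2.36 on the other arrays, although the brightest Cd44 probe was at its lowest on that array. A further 2 probes of Cd44 and 1 of Msi1 were well above background on Control female 2 alone. The part of that library's wider detection in these values was not tested.

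Over the 9 measured markers, 0 passed an adjusted p of 0.05 for diet in the limma fit and 0 had an unadjusted p under 0.05, against 0 and 911 of all 21303 genes (0% and 4.28%). For diet, 3 members were higher and 6 lower, with a median of -0.09, while 40.5% of all genes were higher and their median was -0.06. With arrays scaled to their median, 8 members were higher and 1 lower, with a median of 0.28 against 0.31 over all genes. In males 4 were higher and 5 lower, with a median difference of -0.0045, against -0.0093 over all genes, of which 48.7% were higher. Members with an unadjusted p under 0.05 numbered 0 in males and 0 in females, against 1.3% and 5.1% of all genes. In females 6 were higher and 3 lower, with a median of 0.21, against -0.11 over all genes, of which 36.8% were higher. The median of the females was 0.43 without Western female 1, -0.21 without Western female 2, 0.33 without the library labelled Control female 1 and 0.11 without Control female 2.

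Between sexes, 5 members were higher in females and 4 lower, with a median of 0.01 against 0.07 over all genes, of which 62.3% were higher. That median was -0.14 without the library labelled Control female 1 and 0.03 without Control female 2. In the limma fit 0 members passed an adjusted p of 0.05 and 1, Prom1, had an unadjusted p under 0.05, against 3.85% of all genes. The difference between females and males in the diet effect also passed for 0 members, with 0 under an unadjusted p of 0.05 against 1.62% of all genes. It was above 0 for 5 members, against 34.9% of all genes. For Lgr5 it was 1.04 ± 0.92 (SE, 95% interval -1.22 to 3.31, limma adjusted p = 1.000), and it was 2.07 without Western female 1 and 0.02 without Western female 2.

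**Figure D3:**
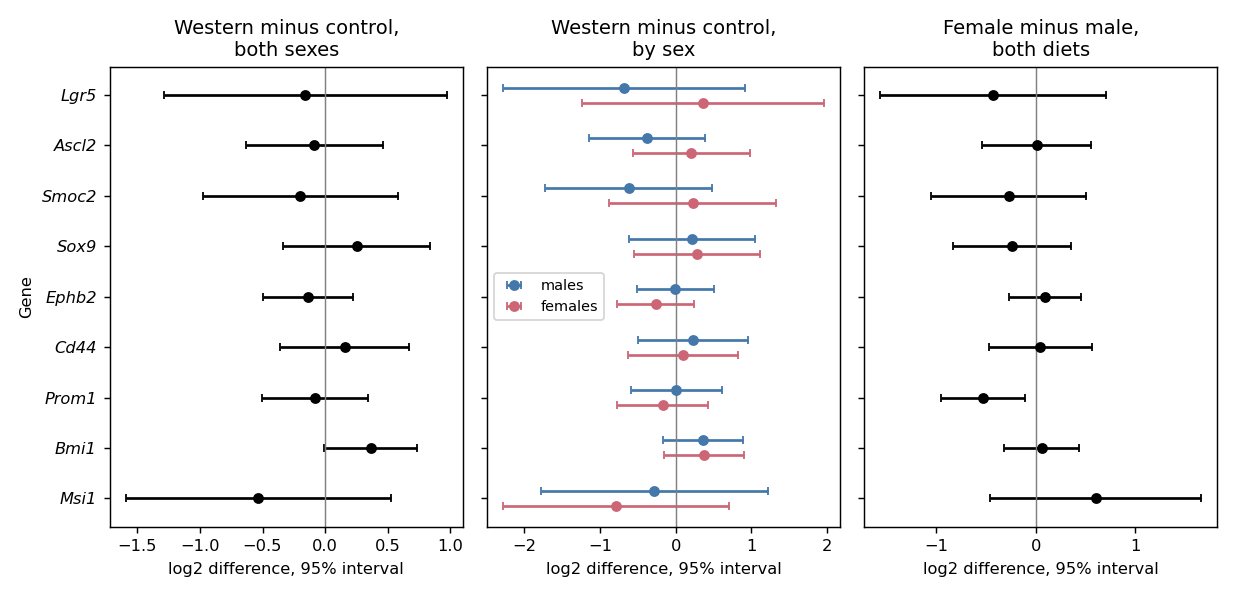
Differences of the measured markers (log2) with 95% intervals from the limma fit, for Western minus control diet over both sexes, for the same within males and within females, and for female minus male over both diets. Every interval of a diet difference includes 0, that of Bmi1 running from -0.01 to 0.74, and the interval of Prom1 for sex runs from -0.95 to -0.10.

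Within a sex, where 2 arrays face 2, separation of the arrays was common. In males 3 members (Lgr5, Ascl2 and Smoc2) were lower on both Western arrays, against 13% of all genes, and 3 (Sox9, Cd44 and Bmi1) were higher, against 12.1%. In females 2 members (Ephb2 and Msi1) were lower on both Western arrays, against 21.8% of all genes, and 1 (Bmi1) was higher, against 9.59%. None of these differences passed an adjusted p of 0.05 in the limma fit.

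For Lgr5, Ascl2, Smoc2 and Sox9, the 2 arrays of a group lay farthest apart in Western female. The SD there was 1.45, 0.59, 0.98 and 0.68 (n = 2), and between 0.0011 and 0.51 in the other groups. With each gene set against its own mean over the 8 arrays, Lgr5, Ascl2 and Smoc2 were on the same side of their means on all 8 arrays. Lgr5 stood at 0.91 on Control male 1, -1.05 on Western female 1 and 0.99 on Western female 2. Smoc2 stood at 0.59, -0.71 and 0.67 on these arrays, Ascl2 at 0.20, -0.31 and 0.53, and Sox9 at 0.10, -0.46 and 0.51. The mean of the 4 genes, a grouping chosen after their values were seen, was -0.63 on Western female 1 and 0.67 on Western female 2 and lay between -0.32 and 0.45 on the others. The remaining members did not share this course. Bmi1 was above its mean on both Western female arrays (0.15 and 0.28), and Prom1 was below its mean on both (-0.49 and -0.21).

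**Figure D4:**
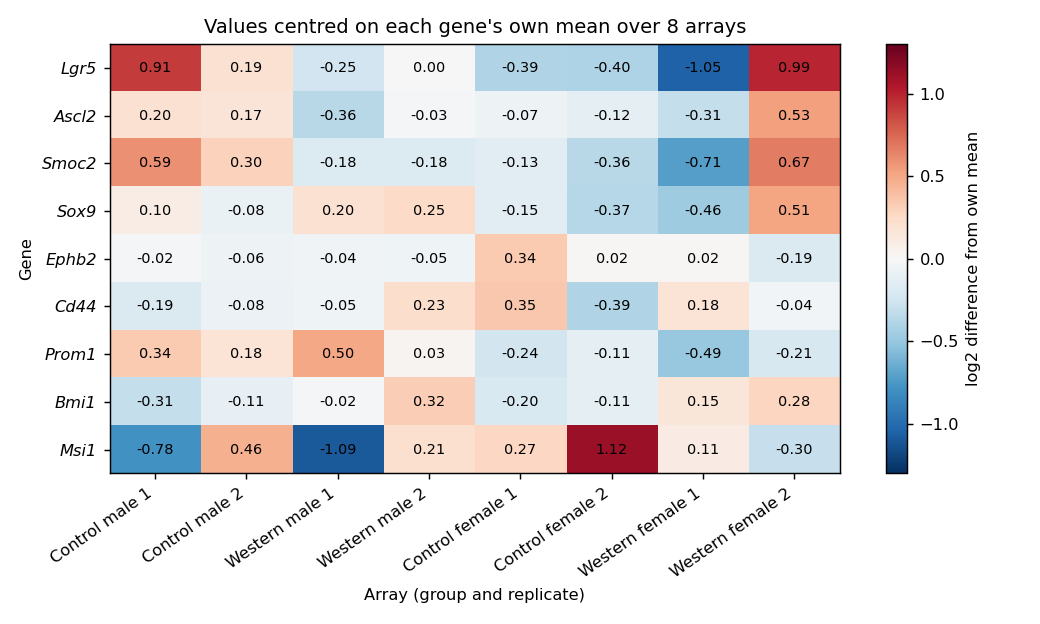
Each measured marker on each array as the log2 difference from its own mean over 8 arrays, printed in the cells and coloured from blue (lower) to red (higher). Lgr5, Ascl2, Smoc2 and Sox9 are all below their means on Western female 1 and above them on Western female 2.

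The 2 Western female arrays were on different slides, and the diet difference in females changed sign with the slide for 5 of 9 members. For Lgr5 it was -0.67 within slide 1, where Western female 1 faces the library labelled Control female 1, and 1.39 within slide 3, where Western female 2 faces Control female 2. For Smoc2 these values were -0.58 and 1.03, for Ascl2 -0.24 and 0.65, for Sox9 -0.31 and 0.88, and for Cd44 -0.17 and 0.35. The other 4 kept their sign, with 0.35 and 0.39 for Bmi1, -0.32 and -0.21 for Ephb2, -0.25 and -0.09 for Prom1 and -0.16 and -1.42 for Msi1. Each slide holds 1 array of either group, so these are values with no test. Over all genes the median of this difference was -0.03 within slide 1 and -0.22 within slide 3. The share of all genes that changed sign was not counted, so the 5 of 9 is no trait of the markers. Over both sexes, the diet difference of Lgr5 was 0.35 without Western female 1 and -0.67 without Western female 2.

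Of 12392 named genes well above background on all 8 arrays, those whose centred values were most alike to Lgr5 were Mmp7 (root mean square difference 0.17 over the 8 arrays), Habp2 (0.22) and Smoc2 (0.23). Mmp7, matrilysin, activates defensins in Paneth cells. It measured 4.10 and 3.57 on Control male, 3.12 and 3.06 on Control female, 3.55 and 3.56 on Western male and 2.35 and 4.33 on Western female. Habp2, a secreted serine protease, measured 0.33 on Western female 1 and 2.28 on Western female 2. Ascl2 came 144th and Sox9 233rd in this order. The order rested in part on the Western female arrays, because without both of them Mmp7 came 16th, Smoc2 17th and Habp2 27th. The likeness is a description over 8 arrays of the same tissue that share slides, and it was chosen by the size of the likeness.

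Marker lists of other cell types also moved between these arrays. The mean of the 6 measured Paneth cell genes, set against its average over arrays, was -0.45 on Western female 1 and 0.43 on Western female 2. It lay between -0.22 and 0.27 on the others. That list includes Mmp7, picked above for its likeness to Lgr5, so its parallel with Lgr5 is partly built in. Its other genes measured 4.09 and 5.66 (Ang4), 7.38 and 8.24 (Defa5), 8.64 and 9.19 (Defa21), 8.42 and 8.73 (Itln1) and 7.83 and 7.87 (Lyz1) on Western female 1 and 2. The mean of the 11 enterocyte genes was 0.43 on Western female 1 and -0.30 on Western female 2, and between -0.42 and 0.45 on the others. On Western female 2 the 3 measured fat cell genes averaged 5.56, against -1.77 to 0.76 elsewhere. On Control male 1 the 8 smooth muscle genes averaged 3.07 and the 7 measured fibroblast genes 2.56, against -1.21 to 0.19 and -0.91 to 0.56 elsewhere. Of these lists, all Paneth and enterocyte genes, 5 smooth muscle genes, 5 fibroblast genes and 2 fat cell genes were well above background on all 8 arrays. Their part in the values of Lgr5, Ascl2, Smoc2 and Sox9 was not tested.

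**Figure D5:**
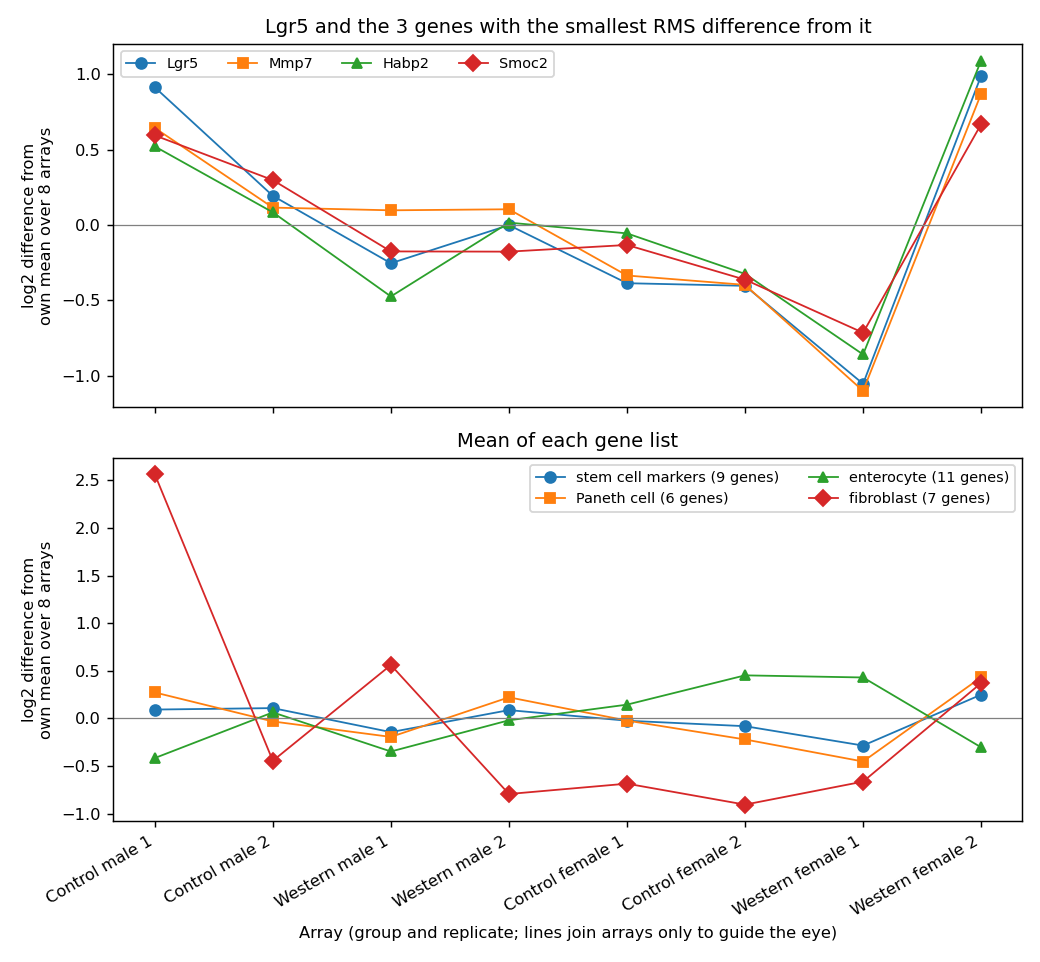
Upper panel, Lgr5 and the 3 genes most alike to it, and lower panel, the mean of 4 gene lists, both as log2 differences from their own mean over the 8 arrays; lines only guide the eye. Lgr5 and its neighbours are lowest on Western female 1 and high on Western female 2. The Paneth cell list, which itself includes Mmp7, lies lowest and highest on these arrays (-0.45 and 0.43). The fibroblast list is highest on Control male 1 (2.56).

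Other genes of the crypt base showed no call for diet. Of 9 measured, 6 were higher on the Western diet and 3 lower, with a median of 0.08, and 0 passed an adjusted p of 0.05 in the limma fit or an unadjusted p of 0.05. Lgr4, the R-spondin receptor related to Lgr5, differed by 0.31 ± 0.16 (SE, limma adjusted p = 0.995), and Tnfrsf19, a receptor also called Troy, by 0.41 ± 0.41 (SE, limma adjusted p = 0.995). Rgmb and Pcdh8, well above background on 5 and 2 arrays, differed by 0.60 ± 0.44 and -0.32 ± 0.41 (SE). Among 4 genes associated with reserve or injury-induced stem cells, 3 were higher and 1 lower, with 0 past either threshold. The farthest apart was Clu, clusterin, which measured -0.35 and 1.73 on Control male, 0.29 and 0.45 on Control female, 2.92 and 2.06 on Western male and 1.67 and 0.48 on Western female. Its diet difference was 1.25 ± 0.54 (SE, limma adjusted p = 0.995), with overlap because Control male 2 lay above both Western female arrays. Hopx and Lrig1 differed by 0.11 and 0.07.

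Over all genes, 40.5% were higher on the Western diet and the median was -0.06. In the limma fit 0% of all genes passed an adjusted p of 0.05 and 4.28% an unadjusted p of 0.05. For Wnt pathway targets outside the marker set, 7 of 10 measured genes were higher on the Western diet and 3 lower, with a median of 0.17. Of these targets, 0 passed an adjusted or unadjusted p of 0.05 in the limma fit, and 7 were well above background on all 8 arrays. Rnf43, a ubiquitin ligase that removes Wnt receptors, differed by 0.31 ± 0.19 (SE, limma adjusted p = 0.995). Wif1 and Znrf3, well above background on 4 and 2 arrays, differed by 0.98 ± 0.65 and -0.97 ± 0.91 (SE, limma adjusted p = 0.995 for each). Nkd1, a feedback inhibitor of the pathway, differed by 0.60 ± 0.68 (SE, limma adjusted p = 0.995). It measured -1.15 on Control male 1 and -0.40 on Western male 1 and between -3.43 and -2.19 on the other arrays. Niche signals, genes of Wnt, Notch, epidermal growth factor and BMP signalling, were higher for 4 and lower for 7 of 11 measured genes, with a median of -0.02. Of these 11, 8 were well above background on all 8 arrays. Of 10 proliferation genes, 2 were higher and 8 lower on the Western diet, with a median of -0.09, and 0 passed an adjusted or unadjusted p of 0.05 in the limma fit.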

How the data were processed

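Per the file headers, Agilent's Feature Extraction 10.7.3.1 made each array's table. The deposited intensity used was the processed signal of each spot, a linear value with background already subtracted, per the file headers. Log2 values were computed from the deposited intensities minus the 75th percentile of each array. Control spots were left out. Outlier spots were left out of the probe values but counted in the 75th percentile, and spots of a probe were averaged. Accessions were named through a RefSeq table (GRCm38.p6), by which 26412 of 39429 probes received a symbol. A probe entered (25733 did) if 2 or more arrays had it well above background, and the brightest probe stood for a gene. Bounds were not needed for the markers.

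Differences were fitted with limma 3.58.1 (R 4.3.3, with data.table, version 1.17.8) as 4 group means over 8 arrays, with 4 residual and 2.01 prior degrees of freedom, and Benjamini-Hochberg adjustment of p ran over all 21303 genes (14824 with a symbol) at a threshold of 0.05. The fit was tested on simulated data. With 2 arrays a group, the number of arrays limits the precision. Slide 1 held replicate 1 of all 4 groups, slide 2 Western male 2 and slide 3 the other arrays, which were scanned on the second of 2 days.

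The members and lists were chosen with earlier results of these data known. The genes named were all members, up to 4 genes of each other list with the smallest p for diet, the 3 genes most alike to Lgr5, and members whose arrays did not overlap; the likeness to Olfm4 was not computed. Of the 17 lists, those of secretory cells, neurons and glia, leukocytes, endothelium and acinar cells are given in the closing section. Alternatives were the normexp background correction with an offset of 50, for which the spot median signal took the place of the mean signal, quantile or median scaling, other probe filters and rules, scan day, slide or replicate number as a block, values within a slide, and each array left out. Figures were drawn with Python 3.11.15, matplotlib 3.10.9 and pandas 2.3.3.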

Additional observations from a re-analysis of the deposited data

Results flagged for a closer look

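Each of 15 marker probes was checked on the control, Western, male and female arrays, as 60 sets of 4 arrays. In 8 sets the gap of 1 array to the nearest other exceeded Dixon's 95% critical value. Chance flags about 1 in 20 independent sets. These sets share arrays, so the 8 cannot be set against that rate. The library Control female 2 was the distant array in 7 of the 8 sets. The second Cd44 probe measured -1.46 there, against -3.05 to -2.83 on the other control arrays. Of the dimmer Cd44 probes, one measured -2.27, against -7.86 to -6.92 on the other control arrays and -7.86 to -6.96 on the other female arrays. The other measured -4.46, against -8.02 to -7.54 and -8.02 to -7.73. The dimmer Msi1 probe measured -3.16, against -7.98 to -7.44 and -7.98 to -7.66. These last 3 probes were not well above background on the other arrays. The remaining set was the dimmer Bmi1 probe on the control arrays, where the library labelled Control female 1 measured -0.57 against -1.02 to -0.98. None of the probes used for the tests was flagged.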

How the results depend on the processing

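No marker passed an adjusted p of 0.05 in any contrast under any limma fit run (background correction, scaling, probe filter or rule, blocks, or 1 array left out), and the difference of Bmi1 for diet stayed between 0.28 and 0.74 and that of Prom1 for sex between -0.79 and -0.41. Scaling to the median of each array moved the median of all genes to 0.31 for diet, 0.14 for diet in males, 0.48 for diet in females, 0.31 for diet by sex and -0.17 for sex, from -0.06, -0.01, -0.11, -0.14 and 0.07, and called 66, 32, 82, 20 and 88 genes in place of 0. Under it 8 markers were higher and 1 lower for diet, against 3 and 6. Its marker medians were 0.284 for diet, 0.799 in females, 0.456 for diet by sex and -0.233 for sex, and the count of markers separated by diet fell from 1 to 0. It turned the sign of Lgr5 (0.212), Ascl2 (0.284), Smoc2 (0.172), Ephb2 (0.236) and Prom1 (0.290) for diet, of Ephb2 in males (0.145), of Ephb2 (0.327) and Prom1 (0.421) in females, of Ephb2 (0.183), Cd44 (0.313) and Prom1 (0.262) for diet by sex, and of Ascl2 (-0.233), Ephb2 (-0.154), Cd44 (-0.199) and Bmi1 (-0.184) for sex. Quantile scaling turned Ephb2 (0.061) and Prom1 (-0.067) in males and Ascl2 for sex (-0.002), and normexp turned Prom1 for diet (0.001) and Bmi1 for diet by sex (-0.011). The mean of all kept probes left 0 markers separated by diet and 0 by sex, and turned Cd44 for diet (-0.064) and in females (-0.362), Prom1 in males (-0.139) and Prom1 (0.097) and Bmi1 (-0.125) for diet by sex. With scan day as a block Msi1 in males (0.001), Sox9 (-0.027), Cd44 (0.011) and Bmi1 (-0.056) for diet by sex and Ascl2 for sex (-0.050) turned. With slide as a block Prom1 for diet (0.057), Cd44 in males (-0.059) and Cd44 for diet by sex (0.151) turned. Within slide 1 the marker median in females was -0.251, and Sox9 (-0.107) and Cd44 (-0.016) for diet, Lgr5 (-0.667), Ascl2 (-0.239), Smoc2 (-0.582), Sox9 (-0.312) and Cd44 (-0.169) in females, Sox9 (-0.411) and Msi1 (0.145) for diet by sex and Ascl2 for sex (-0.107) turned. The cause of these changes was not tested. Probe filters turned no sign.
With the replicate block, the marker medians were -0.087 for diet, -0.004 in males, 0.206 in females, 0.013 for diet by sex and 0.013 for sex, and 0 calls changed. The labels do not say that a number marks a batch, although the replicate 1 arrays share slide 1 and a scan day, and the replicate 2 arrays lie on slides 2 and 3. Deviations of same-numbered arrays from their group means correlated between -0.12 and 0.35, the same for either number because the 2 deviations of a group mirror each other.
With 1 array left out, a group of 1 is assumed to vary like the others. The marker medians then ran from -0.153 to 0.123 for diet, -0.024 to 0.015 in males, -0.213 to 0.433 in females, -0.091 to 0.180 for diet by sex and -0.197 to 0.089 for sex. Markers separated by diet numbered 1 to 2 (with Msi1 without Control male 1, Cd44 without the library labelled Control female 1 and Sox9 without Western female 1) and by sex 1 to 4 (with Lgr5, Sox9 and Ephb2 without Western female 2). Signs turned for diet within the ranges -0.670 to 0.352 for Lgr5, -0.296 to 0.123 for Ascl2, -0.545 to 0.147 for Smoc2, -0.027 to 0.342 for Cd44 and -0.198 to 0.036 for Prom1; in males within -0.024 to 0.015 for Ephb2, -0.225 to 0.243 for Prom1 and -0.928 to 0.367 for Msi1; and in females within -0.659 to 1.385 for Lgr5, -0.213 to 0.625 for Ascl2, -0.467 to 0.916 for Smoc2, -0.199 to 0.767 for Sox9 and -0.277 to 0.462 for Cd44. For diet by sex they turned within -0.417 to 0.550 for Sox9, -0.500 to 0.239 for Cd44, -0.415 to 0.053 for Prom1, -0.158 to 0.184 for Bmi1 and -1.156 to 0.139 for Msi1, and for sex within -0.938 to 0.085 for Lgr5, -0.197 to 0.223 for Ascl2, -0.616 to 0.075 for Smoc2, -0.476 to 0.008 for Sox9, -0.138 to 0.232 for Cd44 and -0.024 to 0.147 for Bmi1. Differences that kept their sign but came near 0 or moved most were those of Sox9 (0.009 to 0.493), Ephb2 (-0.214 to -0.055) and Msi1 (-0.859 to -0.211) for diet, Lgr5 in males (-1.041 to -0.321), Lgr5 (0.022 to 2.067), Ascl2 (0.166 to 1.005) and Smoc2 (0.155 to 1.539) for diet by sex, and Msi1 for sex (0.278 to 0.926). Without the library labelled Control female 1, Control female 2 was the only array left for control females. The median of all genes for diet in females was then -0.14, against -0.05 without Control female 2 and -0.11 with all arrays. The closeness order to Lgr5, an analysis added after seeing the data, put Mmp7 9th under normexp and 3rd under quantile scaling.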

Other observations

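Gene lists of the other cell types in the tissue were counted for diet in the same limma fit, in which 0 of their genes passed an adjusted p of 0.05. Over all genes, 40.5% were higher on the Western diet and 4.28% had an unadjusted p under 0.05, with a median of -0.06. All 8 smooth muscle genes and all 6 measured neuron and glia genes were lower on the Western diet, with medians of -1.08 and -0.45, and 0 of either list had an unadjusted p under 0.05. The smooth muscle median was -2.12 in males, where Control male 1 alone was high, and 0.05 in females. Fibroblast genes were higher for 3 and lower for 4 of 7 (median -0.34). Of 11 enterocyte genes, 5 were higher and 6 lower (median -0.03), with 2 under an unadjusted p of 0.05. Paneth cell genes were higher for 3 and lower for 3 of 6 (median 0.01). Lyz1, the Paneth cell lysozyme, differed by -0.09 ± 0.15 (SE, limma adjusted p = 0.999). Genes of goblet, tuft and enteroendocrine cells were higher for 2 and lower for 7 of 9 (median -0.07), with 1 under an unadjusted p of 0.05. Leukocyte genes were higher for 4 and lower for 3 of 7 (median 0.15), endothelial genes for 1 and 2 of 3 (median -0.47), and acinar genes for 0 and 2 of 2 (median -0.17). Fat cell genes were higher for 2 and lower for 1 of 3 (median 1.20), with medians of -0.69 in males and 3.09 in females, where Western female 2 was high.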
